A study of Mus musculus with 24 samples.

Results

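The genes described here encode protein subunits of complexes II, III, IV and V of the mitochondrial oxidative phosphorylation system, together with cytochrome c. They were taken by symbol from the annotation of the array: the 4 genes Sdha, Sdhb, Sdhc and Sdhd, the genes Cyc1 and Cycs, and all genes whose symbol starts with Uqcr, Atp5, Cox4i, Cox5, Cox6, Cox7 or Cox8. The rule found 45 of the 19057 genes named on the array, measured by 71 of its 45281 probes. Complex II had 4 genes, complex III 8, cytochrome c 1, complex IV 16 and complex V 16. Of these, 40 were measured above background often enough to be tested, among 8943 genes in all. Subunits that carry other symbols, and those encoded by mitochondrial DNA, were not analysed here.

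The tissue was gastrocnemius, a calf muscle rich in fast fibres, from male mice of the hybrid strain B6D2F1 in the National Institute on Aging colony. The 3 groups were young ad libitum mice of 8 months, old ad libitum mice of 24 months and old caloric restricted mice of 24 months, here called young, old and restricted. Ad libitum feeding means free access to food, and neither the degree nor the duration of the restriction is given in the sources used here. There were 6 young mice on 10 bead arrays, 6 old mice on 7 and 5 restricted mice on 7, with arrays of the 3 groups on each of 4 chips. The study's title asks whether long restriction preserves mitochondrial function in old age, which makes the transcripts of the respiratory chain one of its readouts.

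Electrons from succinate enter the respiratory chain at complex II, which is also the succinate dehydrogenase of the citrate cycle. They pass through ubiquinone to complex III, then through cytochrome c to complex IV, which reduces oxygen, and complexes III and IV pump protons. Complex V, the ATP synthase, lets the protons flow back through a membrane rotor and uses that flow to make ATP, on which a working muscle fibre depends. All genes named here lie in the nucleus, and their proteins are imported into the mitochondrion. Several subunits of complex IV come in paired isoforms, one of them typical of heart and skeletal muscle.

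Between 13625 and 15176 probes were detected per array. Repeated arrays of a mouse resembled each other: after the mean of all arrays was taken off, their median correlation was 0.668, and that of arrays from different mice within a group was 0.0448. Whether each name in the labels is a separate animal is not spelled out, so each p-value reflects only the scatter among these samples. All 12 skeletal muscle markers were measured, and their mean per mouse stayed within -0.08 and 0.06 on the log2 scale around the mean of all mice. Most of the subunit genes were bright: 29 of the 40 lay among the 500 brightest genes, and the probe of Atp5b, the catalytic beta subunit of the ATP synthase, had raw signals of 38870 to 50260. Their SD within groups had a median of 0.127 (log2), against 0.178 for all genes tested, a comparison not matched for brightness. The direction of small differences depended on how the arrays were scaled, and both settings are given. The 3 comparisons share groups with each other, so their values are set side by side and are not independent.

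With age, 1 of the 40 subunit genes changed past the threshold. Atp5e, the epsilon subunit in the central stalk of the ATP synthase, rose 1.34-fold in old mice. Atp5k and Atp5md, small membrane subunits of the same enzyme, had larger differences of 1.39-fold and 1.42-fold that missed the threshold. The median log2 difference was 0.08 in complex II, 0.05 in complex III, 0.07 in complex IV and 0.08 in complex V, against 0.02 over all genes tested. The threshold was an adjusted p of 0.05, which 184 genes passed, or 2.06% of those tested (limma, Benjamini-Hochberg adjustment over all genes), and 32 to 262 with 1 mouse left out. At an unadjusted p under 0.05 there were 6 members, all higher in old mice. Over all 8943 genes 19.4% were under it in either direction, 989 of them higher and 748 lower. No member had groups that did not overlap, against 2.59% of all genes. In whole muscle, a change in the share of a cell type and a change in RNA per cell cannot be told apart.

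**Figure D1:**
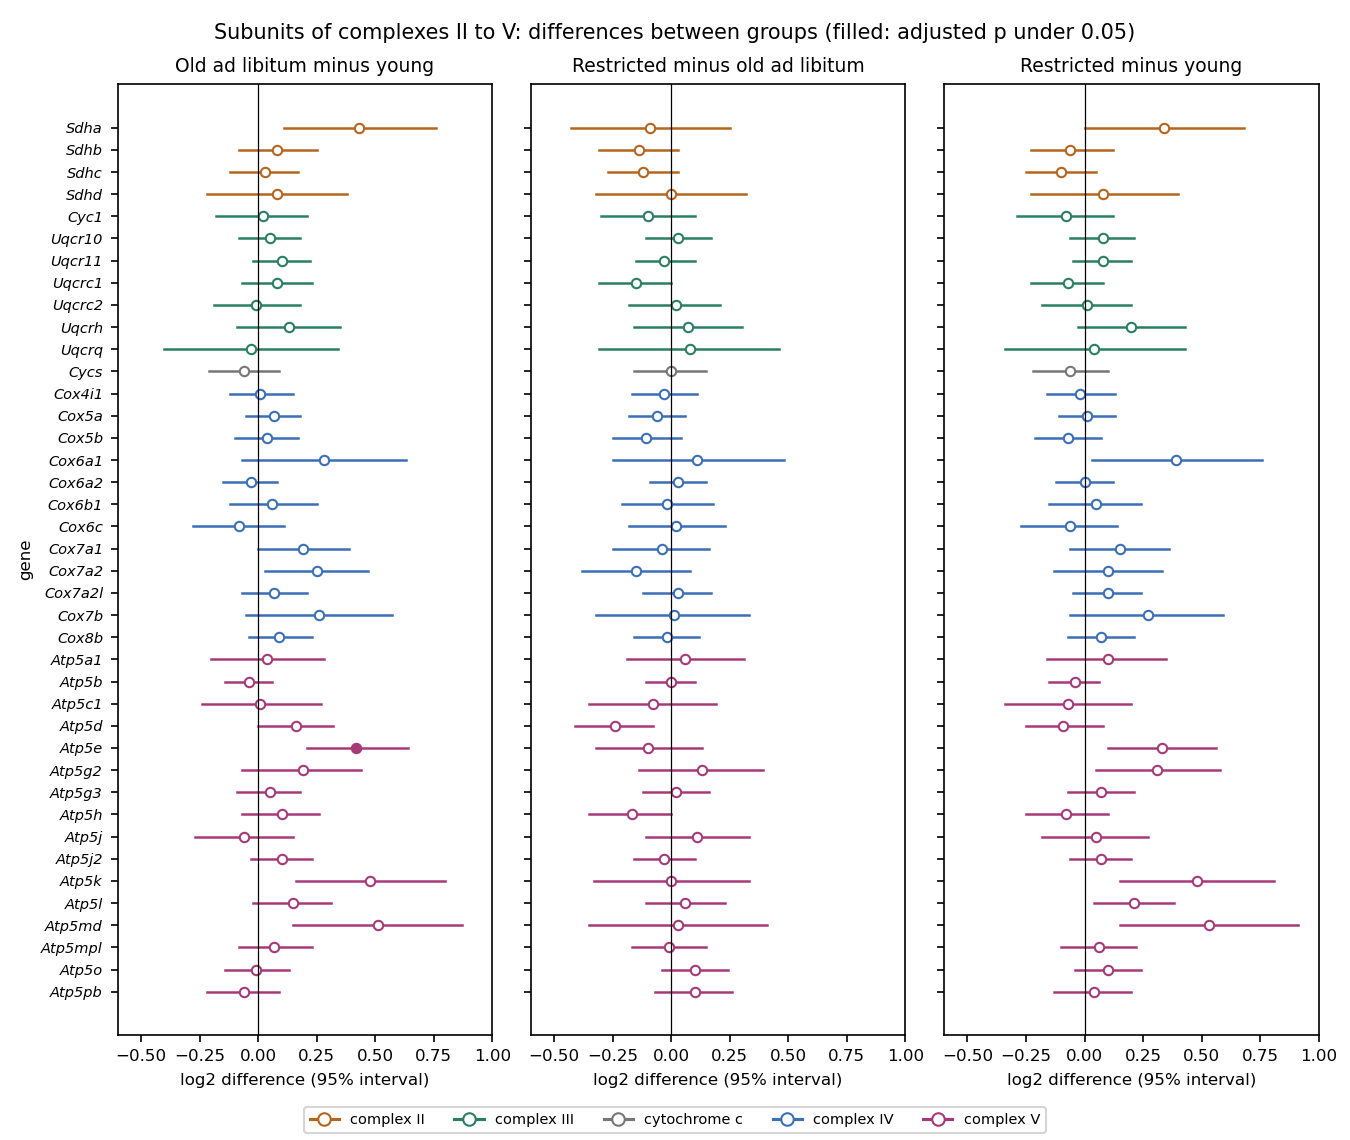
Log2 difference of each tested subunit gene with its 95% interval, in the 3 comparisons, coloured by complex. A filled point marks an adjusted p under 0.05, which only Atp5e reached, with age (0.42), and most other points lie within 0.3 of 0.

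Quantile normalization and 75th percentile scaling gave different splits. Under quantile normalization 31 of the 40 were higher in old mice and 9 lower (77.5% higher, against 54.2% of all genes). Under 75th percentile scaling of each array 39 were higher and 1 lower, and 64.2% of all genes were higher. The second scaling moved the median of the 500 brightest genes from -0.02 to 0.09, and 80.2% of them were then higher in old mice. It raised the count of members past the threshold to 4, namely Atp5d, Atp5e, Cox5a and Uqcr11, and that over all 8943 genes from 184 to 280. In the plot of the differences under both scalings the points of the age comparison lie above the line of equal values, except that of Uqcrq (-0.03 and -0.04).

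**Figure D2:**
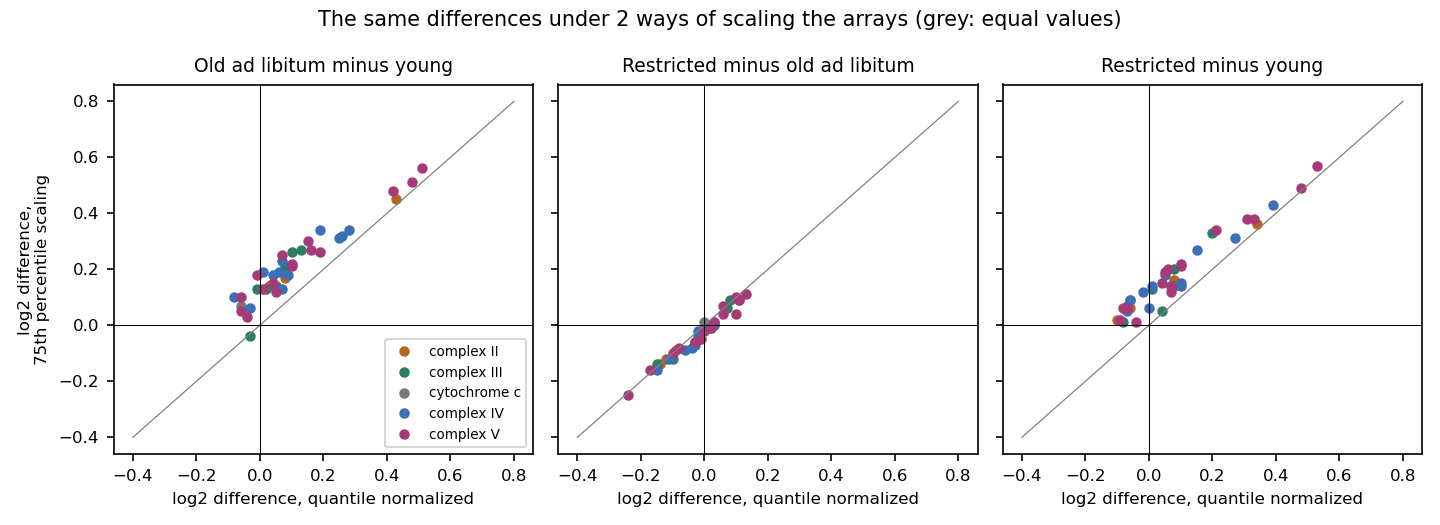
Log2 difference of each tested subunit gene under quantile normalization (horizontal axis) and under 75th percentile scaling (vertical axis), in the 3 comparisons, with a grey line of equal values. With age 31 genes lie above 0 on the first scale and 39 on the second, and for restricted minus young 27 and 40. Of all genes, 64.2% with age and 55.2% for restricted minus young lie above 0 on the second scale.

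Complex II showed no call with age. Sdha, the catalytic flavoprotein, was measured close to background, detected on 12 of the 24 arrays with raw signals of 97.8 to 172, and its differences are the least certain of the complex. In young mice it ran from 5.39 through a median of 5.74 to 5.92 on the log2 scale, and in old mice from 5.86 through 6.07 to 6.58. The restricted mice had 6.45, 6.11, 6.33, 5.75 and 5.64. Old mice 5 and 6 were the highest of their group, 4 of the 6 old mice lay above all young mice, and the ranges overlapped. Old minus young came to 0.43 ± 0.15 (SE, p = 0.0115, adjusted p = 0.133). Sdhb, the iron-sulfur subunit, had 0.08, Sdhc 0.03 and Sdhd 0.08, the last pair being the membrane anchors. The mean of the complex ranged from -0.24 to 0.01 in young mice and from -0.20 to 0.35 in old mice, with old mouse 6 at the top and old mouse 4 at the bottom.

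In complex III, 5 of the 7 tested genes were higher in old mice and none passed, with differences between -0.03 and 0.13. Uqcr11, a small accessory subunit, had the smallest p. It ran from 14.47 through a median of 14.52 to 14.56 in young mice and from 14.50 through 14.59 to 14.78 in old mice. The restricted mice had 14.59, 14.53, 14.66, 14.60 and 14.61. The young mice were close together, and 4 of the 6 old mice lay above all of them. The groups differed by 0.10 ± 0.06 (SE, adjusted p = 0.333). Uqcrh, the hinge protein that contacts cytochrome c1, differed by 0.13, and Uqcrc1 and Uqcrc2, the core proteins, by 0.08 and -0.01. Cyc1, cytochrome c1 itself, differed by 0.02 and Uqcr10, another small subunit, by 0.05. Uqcrq was close to background, detected on 13 arrays, and differed by -0.03. Uqcrfs1, the Rieske iron-sulfur protein, was not tested, since its 2 probes were detected on 0 and 1 arrays. Cycs, the electron carrier cytochrome c, differed by -0.06 (adjusted p = 0.70), with a 95% interval of -0.21 to 0.09.

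In complex IV, 10 of the 12 tested genes were higher in old mice and none passed. The smallest p belonged to Cox7a2, the isoform of subunit VIIa found in most tissues. It ran from 10.02 through a median of 10.06 to 10.37 in young mice and from 10.13 through 10.32 to 10.69 in old mice. The restricted mice had 10.41, 10.39, 10.21, 10.23 and 9.88. Young mouse 6 lay within the old range, and 2 old mice lay above all young mice. Cox7a2 differed by 0.25 ± 0.10 (SE, p = 0.0261, adjusted p = 0.195). Its muscle partner Cox7a1 differed by 0.19 ± 0.09 (SE, adjusted p = 0.269), Cox7b by 0.26 and Cox7a2l, which takes part in joining complexes III and IV, by 0.07. Cox4i1, Cox5a and Cox5b, subunits around the catalytic core that mitochondrial DNA encodes, differed by 0.01, 0.07 and 0.04. Cox6b1, on the side of cytochrome c, differed by 0.06, and Cox8b, a muscle isoform, by 0.09. Cox6c had the lowest difference of the complex, at -0.08. Cox4i2, a second isoform of subunit IV, was detected on 2 arrays, both of restricted mice, and Cox6b2, Cox7b2 and Cox8c on none, so these 4 were not tested.

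Complex V held the 3 smallest p-values with age. Atp5e ran from 11 through a median of 11.27 to 11.33 in young mice and from 11.28 through 11.66 to 12.02 in old mice. The restricted mice had 11.67, 11.77, 11.45, 11.47 and 11.45. Of the 6 old mice 5 lay above all young mice, old mouse 4 lay among the young, and every restricted mouse lay above every young mouse. The log2 difference with age was 0.42 ± 0.10 (SE, 95% interval 0.21 to 0.64, p = 0.00064, adjusted p = 0.0417).

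The call of Atp5e lay close to the threshold, while its log2 difference was positive in every fit. Over the alternatives with a test and the fits that left out 1 mouse, the adjusted p of Atp5e ran from 0.0144 to 0.11. Its log2 difference ran from 0.35 to 0.50. The call was lost in 9 of the 17 fits that left out 1 mouse, those without young mouse 1, 2, 3, 4 or 5 or without old mouse 1, 2, 5 or 6, where the adjusted p lay between 0.056 and 0.0951. With the chip as a block the difference was 0.39 (adjusted p = 0.0224), and within the 4 chips it was 0.31, 0.33, 0.72 and 0.29. These 4 values are not independent, since young mouse 6 was measured on all 4 chips. Old mouse 6 was the only old mouse on chip 3. Without chip 4 it was 0.43 with an adjusted p of 0.11.

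Atp5k, subunit e in the membrane part, ran from 8.55 through a median of 8.69 to 9.19 in young mice and from 8.73 through 9.33 to 9.73 in old mice. The restricted mice had 9.51, 9.28, 9.53, 9.02 and 9.02. Of the old mice 4 of 6 lay above all young mice, and young mouse 6 stood highest in its group. Atp5k differed with age by 0.48 ± 0.15 (SE, p = 0.00534, adjusted p = 0.0952). A second, dimmer probe of Atp5k differed by 0.46 with a wider spread (p = 0.0604).

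Atp5md, a small membrane subunit also called DAPIT, ran from 10.40 through a median of 10.83 to 11.38 in young mice and from 10.89 through 11.40 to 11.69 in old mice. The restricted mice had 11.80, 11.46, 11.65, 11.22 and 10.89. The groups overlapped, with 3 of the 6 old mice above all young mice. With age Atp5md differed by 0.51 ± 0.17 (SE, p = 0.00864, adjusted p = 0.114).

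The remaining subunits of complex V differed less. Atp5d, the delta subunit beside epsilon in the central stalk, ran from 12.86 through a median of 13.00 to 13.12 in young mice and from 13.04 through 13.11 to 13.43 in old mice. Old mouse 6 was the highest, and 3 of the 6 old mice lay above all young mice. The log2 difference was 0.16 ± 0.07 (SE, adjusted p = 0.248). The subunits of the catalytic head, Atp5a1 and Atp5b, differed by 0.04 and -0.04, and Atp5c1, the rotor shaft, by 0.01. For Atp5b the interval was narrow, from -0.14 to 0.06. Atp5g2 and Atp5g3, which encode the same c subunit of the membrane ring, differed by 0.19 and 0.05. The peripheral stalk genes Atp5h, Atp5j, Atp5o and Atp5pb differed by 0.10, -0.06, -0.01 and -0.06. The small membrane subunits Atp5l, Atp5j2 and Atp5mpl differed by 0.15, 0.10 and 0.07. For 26 of the 40 members the 95% interval lay within 0.3 of 0 on the log2 scale, against 3543 of all 8943 genes. The members with age differences of 0.25 or more were Atp5e, Atp5k, Atp5md, Sdha, Cox6a1, Cox7b and Cox7a2. Their mean levels were 5.97 to 11.48, below those of most members. Among other members at such levels, Cox7a2l (11.34) differed by 0.07 and Uqcrq (6.08) by -0.03. Whether the level of a probe shaped its difference was not tested.

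The chips bear on these values. Of the 3 mice measured on chip 4 and on other chips, all 3 had lower values on chip 4 for 9 of the 40 members, against 15.2% of all genes. All 3 had higher values for 11 members, a share not computed over all genes. The median shift was 0.01 for the members and 0.02 for all genes. The mean shift on chip 4 was -0.45 for Atp5md, -0.43 for Atp5k, -0.39 for Sdha, -0.29 for Cox7b and -0.25 for Atp5e. For Atp5k and Sdha the SD between arrays of 1 mouse, 0.28 for each, was about as large as the SD between mice of a group, 0.28 and 0.29, whereas for Atp5e it was 0.14 against 0.18. Young mice 3 and 5 and old mouse 4 were measured on chip 4 alone. Old mouse 6, the highest old mouse in Atp5e, Atp5k, Atp5md and Sdha, was measured on chip 3 alone. No other old mouse was on chip 3. With the chip as a block the age difference of Atp5k was 0.38 (adjusted p = 0.117), that of Atp5md 0.43 (adjusted p = 0.134) and that of Sdha 0.36 (adjusted p = 0.259). Within chips Atp5k differed by 0.16, 0.29, 0.87 and 0.24, and Atp5md by 0.13, 0.30, 0.63 and 0.42. Within single chips the median of all members was 0.07, 0.07, 0.18 and -0.01.

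**Figure D3:**
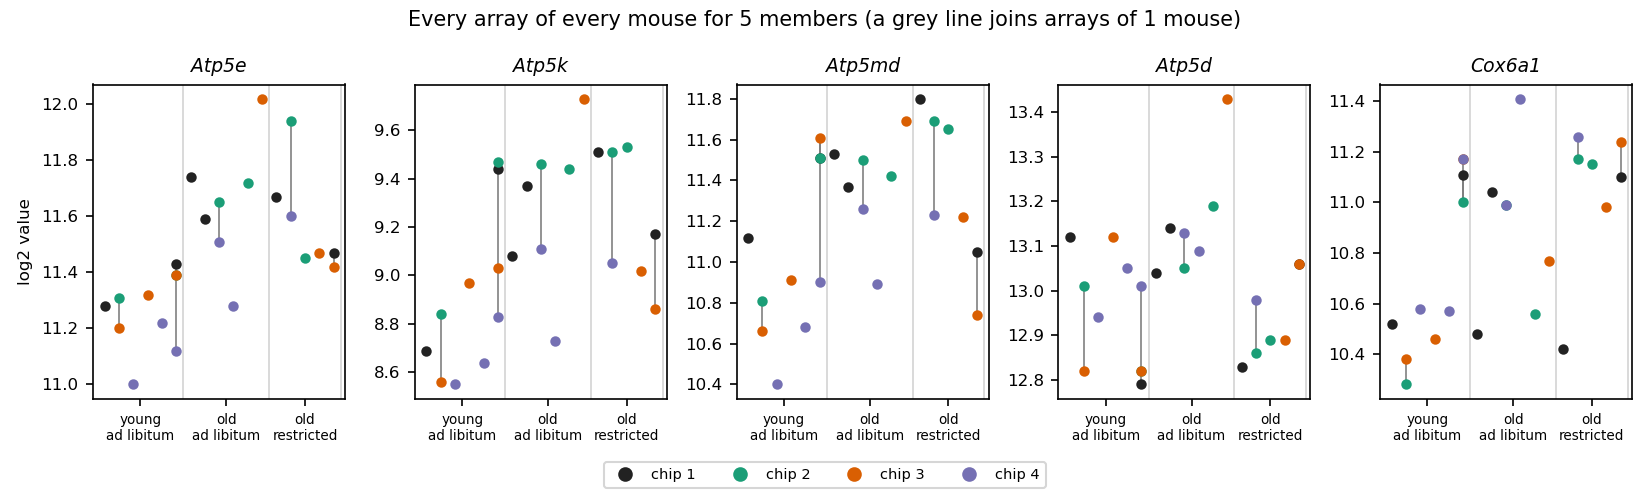
Log2 value of 5 subunit genes on every array, with mice side by side within their group, colours for the 4 chips and a grey line joining arrays of 1 mouse. Chip 4 values of Atp5e, Atp5k and Atp5md lie below the other arrays of the same mouse, and Cox6a1 keeps its level across chips in young mouse 6, the highest young mouse.

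Restriction moved no subunit gene past the threshold. Against old mice, 19 of the 40 members were higher in restricted mice and 21 lower (44.7% of all genes were higher). With 75th percentile scaling 14 were higher and 26 lower (42.4% of all genes were higher). The median log2 differences were -0.11 in complex II, 0.02 in complex III, -0.02 in complex IV and 0.01 in complex V, against -0.02 over all genes. In limma 0 members passed, against 284 genes or 3.18% of those tested (66 to 502 with 1 mouse left out), and 2 members had an unadjusted p under 0.05, against 19.8% of all genes. No member had groups that did not overlap, against 2.36% of all genes. For 21 of the 40 members the 95% interval lay within 0.3 of 0, against 3189 of all 8943 genes.

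The lower values under restriction included Atp5d. Its restricted mice had 12.83, 12.92, 12.89, 12.89 and 13.06, against 13.04 to 13.43 in old mice. Of the 5 restricted mice 4 lay below every old mouse, and restricted mouse 5 lay within the old range. The log2 difference was -0.24 ± 0.08 (SE, p = 0.00552, adjusted p = 0.0886). It was negative within each of the 4 chips, at -0.14, -0.25, -0.45 and -0.13. The value of -0.45 came from a chip whose only old mouse was the highest old mouse in Atp5d (13.43). With the chip as a block the difference was -0.23 (adjusted p = 0.139). With 75th percentile scaling it was -0.25 and passed the threshold. Restricted and young mice differed by -0.09 in this gene.

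Atp5h, in the peripheral stalk, had 13.78, 13.79, 13.73, 13.72 and 13.67 in restricted mice, against 13.60 through a median of 13.97 to 14.08 in old mice. The restricted mice were close together inside the lower part of the old range, and old mouse 4 lay below them all. The log2 difference was -0.17 ± 0.08 (SE, p = 0.0491, adjusted p = 0.25). In the same stalk Atp5o and Atp5pb differed by 0.10 each and Atp5j by 0.11. Atp5e, the gene called with age, differed by -0.10 under restriction (95% interval -0.32 to 0.13), Atp5k by 0.00 and Atp5md by 0.03.

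In complex III, Uqcrc1 had the smallest p under restriction. Its restricted mice had 13.96, 14.03, 14.05, 14.08 and 14.17, against 14.08 through a median of 14.19 to 14.38 in old mice. Of the 5 restricted mice 3 lay below every old mouse. The log2 difference was -0.15 ± 0.07 (SE, adjusted p = 0.255). Cyc1 differed by -0.10, and the other 5 tested genes of the complex by -0.03 to 0.08. In complex II, Sdhb differed by -0.14, Sdhc by -0.12, Sdha by -0.09 and Sdhd by 0.00. In complex IV the lowest difference was that of Cox7a2, at -0.15 ± 0.11 (SE), and the smallest p that of Cox5b, at -0.11 (adjusted p = 0.395). Cox5a differed by -0.06, Cox4i1 by -0.03 and Cox6a1 by 0.11. Cycs differed by 0.00, with a 95% interval of -0.16 to 0.15.

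Against young mice, restricted mice had the same 3 genes of complex V at the top by p. No subunit gene passed in limma, against 421 genes or 4.71% of those tested (131 to 691 with 1 mouse left out). At an unadjusted p under 0.05 there were 7 members, all higher in restricted mice. These were Atp5e, Atp5k, Atp5md, Atp5l, Atp5g2, Cox6a1 and Sdha. Over all 8943 genes 21.5% were under it in either direction, 876 of them higher and 1047 lower. One member, Atp5e, had groups that did not overlap, or 1 of 40, against 5.13% of all genes. Under quantile normalization 27 members were higher and 13 lower (48.3% of all genes were higher). With 75th percentile scaling 40 were higher and 0 lower. That scaling put 55.2% of all genes and 74.4% of the 500 brightest higher in restricted mice, and 29 of the 40 members lay among those 500. The median log2 differences were 0.01, 0.04, 0.06 and 0.07 in complexes II, III, IV and V, against -0.01 over all genes.

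Atp5e was 1.26-fold higher in restricted than in young mice (log2 difference 0.33 ± 0.11 SE, adjusted p = 0.0861), with the lowest restricted mouse at 11.45 and the highest young mouse at 11.33. With the chip as a block it differed by 0.26 (adjusted p = 0.102), and within chips by 0.22, 0.34, 0.15 and 0.49. Atp5k differed by 0.48 ± 0.16 (SE, adjusted p = 0.0881) and Atp5md by 0.53 ± 0.18 (SE, adjusted p = 0.0947). With the chip as a block these were 0.34 and 0.38, and within chip 3 they were 0.09 and -0.08. Atp5l differed by 0.21 ± 0.08 (SE, adjusted p = 0.142), and a second probe by 0.31. Atp5g2 ran from 11.39 through a median of 11.84 to 12.05 in young mice, while the restricted mice had 12.35, 12.27, 11.92, 12.04 and 11.81. Of these, 2 lay above all young mice, and the log2 difference was 0.31 ± 0.13 (SE, adjusted p = 0.157).

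**Figure D4:**
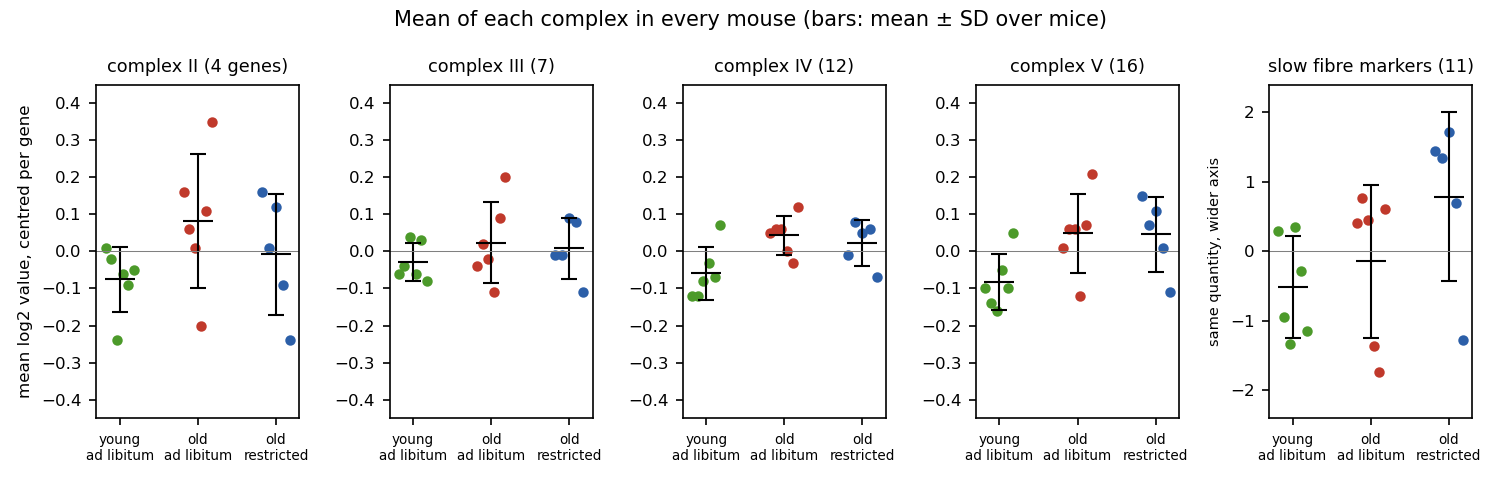
Mean log2 value of the tested genes of each complex in every mouse, each gene centred on its mean over all mice, with the slow fibre markers on a wider axis at the right. Black bars show the mean ± SD over mice, and for every complex the 3 groups overlap, with old mouse 6 highest among the old.

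Averaged over the tested genes of a complex, the groups overlapped throughout. The mean of complex V was -0.08 ± 0.08 (SD, n = 6) in young, 0.05 ± 0.10 (SD, n = 6) in old and 0.04 ± 0.10 (SD, n = 5) in restricted mice. That of complex IV was -0.06 ± 0.07, 0.04 ± 0.05 and 0.02 ± 0.06 in the same order. Complex III had -0.03 ± 0.05, 0.02 ± 0.11 and 0.01 ± 0.08, and complex II -0.08 ± 0.09, 0.08 ± 0.18 and -0.01 ± 0.16. Old mouse 6 had the highest mean over all 40 members, 0.19, and restricted mouse 5 and young mouse 3 the lowest, -0.11 each. Old mouse 4 was low in complexes II, III and V.

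The slow fibre markers varied widely between mice of a group. All 11 slow fibre markers were measured, and their mean per mouse ran from -1.33 to 0.35 in young, from -1.74 to 0.77 in old and from -1.27 to 1.72 in restricted mice. No marker passed with age or under restriction, where limma found 0 and 2 at an unadjusted p under 0.05 (19.4% and 19.8% of all genes). Between restricted and young mice 1 of 11 passed, against 4.71% of all genes. Restricted mouse 5 was the lowest of its group in the slow fibre markers and in the means of complexes II to V. Old mouse 5 had the lowest slow fibre mean of all mice, with 0.11, 0.09, -0.03 and 0.07 in complexes II to V. Whether the 2 kinds of mean go together was not tested. The marker that passed was Myh7, the slow myosin heavy chain, which rose 3.47-fold in restricted against young mice (adjusted p = 0.049). With the mean of the slow fibre markers as a covariate, Atp5e differed by 0.40 with age (adjusted p = 0.04). Its difference between restricted and young mice was 0.23 (adjusted p = 0.272), and the median of complex II in that comparison was -0.14. The group means of the covariate were -0.51 in young, -0.14 in old and 0.79 in restricted mice. The part of fibre type in the subunit values was not tested. With age all 5 measured erythroid markers were higher (median 0.50) and all 6 fibroblast markers lower (median -0.54), none past the threshold, and their part in the subunit values was not tested.

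The isoform pairs of complex IV could be compared within a mouse. The log2 ratio of Cox6a1, the form of most tissues, to Cox6a2, the heart and muscle form, was centred on its mean over all mice. In young mice it ran from -0.47 to 0.28 and was -0.23 ± 0.26 (SD, n = 6). In old mice it ran from -0.42 to 0.66 and was 0.09 ± 0.40 (SD, n = 6), and the restricted mice had -0.35, 0.40, 0.32, 0.09 and 0.37. Young mouse 6, old mice 2, 3 and 4 and restricted mice 2, 3, 4 and 5 lay above 0, and the groups overlapped. The numerator carried the spread: Cox6a1 had a mean of 10.59 ± 0.27 in young, 10.88 ± 0.34 in old and 10.99 ± 0.33 in restricted mice, while Cox6a2 had 15.29 ± 0.07, 15.26 ± 0.07 and 15.29 ± 0.04. Between restricted and young mice Cox6a1 differed by 0.39 ± 0.18 (SE, p = 0.0368, adjusted p = 0.20), and its second probe by 0.37. The ratio of Cox7a2 to Cox7a1 was -0.01 ± 0.07 in young, 0.05 ± 0.15 in old and -0.05 ± 0.08 in restricted mice.

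The array held several probes for some members. Of 11 genes with more than 1 kept probe, all probes had the same sign in 8 with age, 6 under restriction and 9 between restricted and young mice. Atp5pb, subunit b of the peripheral stalk, had the widest disagreement. Its brightest probe differed by 0.04 between restricted and young mice, and another by 0.69 (p = 0.000168), a dim one with raw signals of 208 to 431. Its 4 probes, brightest first, differed by -0.06, -0.04, 0.20 and 0.31 with age and by 0.10, 0.09, -0.09 and 0.38 under restriction. The probes of Cycs had -0.06, 0.23 and -0.04 with age and 0.00, -0.05 and -0.18 under restriction. Those of Sdhb had 0.08, 0.06 and 0.09 with age and -0.14, -0.06 and 0.09 under restriction. With age the probe used and the second probe had 0.15 and 0.32 in Atp5l, 0.48 and 0.46 in Atp5k, 0.28 and 0.17 in Cox6a1, 0.04 and 0.14 in Cox5b and 0.06 and 0.03 in Cox6b1. They had 0.05 and 0.06 in Uqcr10, -0.06 and -0.05 in Atp5j and -0.01 and 0.01 in Atp5o. Under restriction the same 8 genes had 0.06 and 0.00, 0.00 and -0.21, 0.11 and 0.20, -0.11 and -0.17, -0.02 and -0.01, 0.03 and -0.04, 0.11 and 0.09, and 0.10 and 0.20 in that order. The sequences of the probes were not used here, so matches to processed pseudogenes or other transcript forms could not be examined.

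Deviations of the members from their group means ran together only in part. Over the 17 mice the median correlation of the 780 pairs was 0.18, with 0.47 within complex II, 0.16 within complex III, 0.15 within complex IV and 0.27 within complex V. These are descriptions, since all genes share the same arrays, chips and scaling. The genes closest to the mean of the other members were Atp5k (0.87), Sdhb (0.82), Atp5md (0.80) and Atp5o (0.80). At the other end were Atp5b (-0.34), Cox6a1 (-0.30), Cox7a2l (-0.24) and Cox5b (-0.23).

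The 34 tested subunits of complex I, the other entry point of the chain, gave no call in any comparison, with medians of 0.05 with age, -0.03 under restriction and 0.05 between restricted and young mice. At an unadjusted p under 0.05 limma found 5, 1 and 6 of the 34, against 19.4%, 19.8% and 21.5% of all genes. With age the 5 were higher, under restriction the 1 was lower, and in restricted against young mice 4 were higher and 2 lower. In the 9 pathway lists 2 genes passed the threshold, both coding for assembly factors. Both passed between restricted and young mice, where 421 genes or 4.71% of those tested passed. The lists held 5 tested genes for complex III assembly and 20 for complex IV assembly, with 1 call in each. Ttc19, a complex III assembly factor, fell 1.2-fold in restricted against young mice (adjusted p = 0.0428), with a log2 difference of -0.26 against old mice (adjusted p = 0.06). Coa7, needed for complex IV assembly, fell 1.42-fold in restricted against young mice (adjusted p = 0.0284). With age, Pet100, another complex IV assembly factor, differed by 0.51 (adjusted p = 0.0692). None of the 9 tested nuclear regulators passed: their median was 0.02 with age and -0.02 under restriction, and Ppargc1a, a coactivator of mitochondrial genes, differed by 0.43 under restriction (adjusted p = 0.0719).

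Promoter sequences could be set beside the values for 34 of the 45 members, from RefSeq on the mouse build GRCm38.p6, as the 250 bases before each gene's start. Each of 4 words was searched on both strands. The word GCGCATGC, a core of sites for the nuclear respiratory factor NRF1, occurred in 6 of the 34 (17.6%), against 2.32% of 27025 genes. CCGGAAGT, a core for GABPA, occurred in 3 (8.82%, against 2.93%), TCAAGGTCA, a core for ERRA, in 1 (2.94%, against 0.366%), and AAGATGGC, a core for YY1, in 0 (against 1.59%). None of the 4 words contains another, and a match is only a description of the letters. The 6 stretches with the NRF1 word are shown because it is the feature that the subunits share most often, with the word in capitals. Where the capitals run to 10 bases the word occurs on both strands.
Sdhb (chr4:140961201-140961240, plus strand): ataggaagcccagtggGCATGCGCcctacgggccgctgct
Cycs (chr6:50566606-50566645, minus strand): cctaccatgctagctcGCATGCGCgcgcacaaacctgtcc
Cox6a1 (chr5:115349095-115349136, minus strand): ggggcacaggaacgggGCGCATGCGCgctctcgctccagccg
Atp5g2 (chr15:102671064-102671105, minus strand): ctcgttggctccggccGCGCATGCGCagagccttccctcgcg
Atp5k (chr5:108434424-108434465, minus strand): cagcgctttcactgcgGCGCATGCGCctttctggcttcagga
Atp5l (chr9:44920959-44920992, minus strand): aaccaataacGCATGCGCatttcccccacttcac

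The word ended 46 bases before the start in Sdhb, 52 in Cycs, 152 in Cox6a1, 32 in Atp5g2, 40 in Atp5k and 232 in Atp5l. The age differences of these 6 genes were 0.08, -0.06, 0.28, 0.19, 0.48 and 0.15 in that order. Atp5e, the gene called with age, had none of the 4 words in its window, which is shown as the region upstream of that gene.
Atp5e (chr2:174464102-174464351, minus strand): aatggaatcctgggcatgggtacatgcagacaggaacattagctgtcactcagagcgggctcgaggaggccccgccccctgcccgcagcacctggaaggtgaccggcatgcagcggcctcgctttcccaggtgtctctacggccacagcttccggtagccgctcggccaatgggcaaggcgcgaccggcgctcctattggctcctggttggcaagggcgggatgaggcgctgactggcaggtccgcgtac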

How the data were processed

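RNA of gastrocnemius muscle was labelled with biotin and hybridised to Illumina bead arrays, per the labels' protocols. Per its file headers, the table of raw values that was deposited holds a mean signal intensity and a detection p-value for each probe and array, which came from GenomeStudio per the submitters' processing notes. The authors' value table holds normalized intensity values by a method not given in the sources used here, with column medians of 98.6 to 98.7, and served as an alternative.

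Background correction and quantile normalization used neqc (limma 3.58.1, R 4.3.3, offset 16). Probes with a detection p under 0.01 on at least 5 of 24 arrays and 1 gene symbol were kept, arrays of a mouse were averaged, and the probe with the highest mean stood for its gene. Groups were compared in 1 limma fit over 17 mice (lmFit, eBayes, two-sided, Benjamini-Hochberg over 8943 genes, threshold 0.05), with no chip term. The number of arrays limits the precision. The procedure was tested on simulated data.

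The members, the lists (9 for pathways and 10 for cell type markers), the promoter words and the tests were chosen with earlier results of these data known. Named were all members past the threshold, the isoform pairs of complex IV, the 3 members with the smallest p in each complex and comparison, and other members by role. Median log2 differences with age, under restriction and between restricted and young mice, for lists the report does not give, were 0.13, -0.08 and 0.02 for complex II assembly, 0.06, -0.19 and -0.16 for complex III assembly, 0.07, -0.08 and -0.02 for complex IV assembly, and 0.00, -0.02 and -0.05 for complex V assembly. They were 0.01, -0.02 and -0.04 for other electron transport, -0.04, 0.00 and -0.05 for carriers and -0.02, -0.05 and 0.00 for the citrate cycle. Among markers they were -0.03, 0.01 and -0.01 for muscle fibres, 0.30, 1.03 and 1.20 for slow fibres, 0.15, -0.22 and -0.04 for adipocytes, 0.10, -0.28 and -0.22 for macrophages and -0.12, -0.05 and -0.18 for endothelium. They were -0.54, 0.20 and -0.34 for fibroblasts, 0.50, -0.19 and 0.39 for erythroid cells, 0.69, 0.61 and 1.29 for heart, -0.18, 0.19 and 0.01 for nerve and 0.14, 0.06 and 0.20 for satellite cells, the last from 1 gene. Besides Ttc19, Coa7 and Myh7, the list genes past the threshold were Tyrobp, a myeloid gene lower under restriction, and Myh6, a heart myosin higher in restricted than in young mice. Figures were drawn with matplotlib 3.10.9.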

Additional observations from a re-analysis of the deposited data

Results flagged for a closer look

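The named members and the means of the 4 complexes were examined in each group. Of these 93 sets of mice, 6 held 1 mouse set apart from the rest, and chance gives about 1 in 20. The gap between the lowest or highest mouse and its neighbour, set against the whole range of the group, singled these out. Atp5e had a value of 11 in young mouse 3, with 11.22 in the next lowest young mouse, and this mouse was measured on chip 4 alone. Without it the age difference was 0.38 (adjusted p = 0.0893). The mean of complex II was -0.24 in the same mouse, against -0.09 in the next. Cox6a1 had 11.11 in young mouse 6, against 10.58 in the next highest, and this mouse was measured on all 4 chips. Cox7a2l had 11.17 in old mouse 6, below 11.37 in its neighbour, although most other members were high in that mouse. Cox5a had 14.56 in restricted mouse 1, against 14.66, and Uqcrh had 14.15 in restricted mouse 5, against 14.48. The causes were not tested.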

How the results depend on the processing

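No called member changed its sign in any alternative. Only Atp5e, called with age, lost its call: with no detection filter (adjusted p = 0.064), 1 array per mouse (0.067), only the compared groups in the fit (0.0602) and without chip 4 (0.11), an alternative chosen after seeing the data, each leaving 0 members with age. It kept the call in 11 of 15 alternatives with a test. With 75th percentile scaling 4 members passed with age, 1 under restriction (Atp5d) and 2 between restricted and young mice (Atp5e and Atp5l), with 280, 319 and 374 calls over all 8943 genes. The medians of complexes III, IV and V then were 0.14, 0.19 and 0.21 with age and 0.13, 0.14 and 0.19 between restricted and young mice. Array weights gave 2 members with age and 3 between restricted and young mice, with 482 and 1147 calls over all genes. In the latter comparison the fit on the compared groups gave 2, with 615 over all genes, and all kept probes 1, a probe of Atp5pb, with 539 probes in all. Leaving out each mouse gave 0 to 2 members with age, 0 to 0 under restriction and 0 to 3 between restricted and young mice. The 3 came without young mouse 6, with 558 over all genes. There was 1 without old mouse 6 or restricted mouse 5, with 521 and 691 over all genes. With age there were 2 without old mouse 4, with 159 over all genes. Replicate numbers did not pair the mice: 5 of 16 pairs correlated over 0.1. With the replicate block 1 member passed between restricted and young mice (Atp5md, with 244 over all genes) and 1 with age (Atp5e, adjusted p = 0.0424). Within chip 1 the median of complex III under restriction was -0.10. Within chip 3, where old mouse 6 was the only old mouse, the medians of complexes II and III were 0.43 and 0.30 with age. Those of II to V were -0.53, -0.23, -0.09 and -0.16 under restriction, and that of V was -0.03 between restricted and young mice. Within chip 4 complex III had -0.04 with age, and complexes II and IV had 0.07 and 0.08 under restriction. With the slow fibre covariate complex II had -0.14 between restricted and young mice. Over all genes the counts themselves depended on single mice: leaving out each in turn gave 32 to 262 with age (184 with all mice), 66 to 502 under restriction (284) and 131 to 691 between restricted and young mice (421). With age the count was 95 without the filter and 17 without chip 4.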
